A study of Ovis aries with 6 samples.

Results

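Among the 26067 features of a gene-level count table from sheep brain samples, 4610 (17.7%) had an identifier such as novel3863 in place of a gene name. These unnamed loci were taken by their identifier alone, and no measured value was used here to choose them. The rule by which the pipeline reported them is not given in the sources used here, and it may have used reads of these libraries. In that case their detection and level were partly set in advance, also through the group where a locus is high. Features of an annotation are listed whether expressed or not, so comparisons with them carry this limit. The remaining 21457 features were 5317 with a placeholder name that begins with LOC and 16140 with another gene name. The files used here give no position, strand or sequence for an unnamed locus, so no place in the genome is reported for any of them.

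An unnamed locus is a transcribed stretch that a pipeline reports outside the genes of its reference annotation. Such loci can be long non-coding RNAs, unannotated ends of known genes, processed copies of genes that were inserted back into the genome, or transposable elements such as LINE-1, whose open reading frames encode a reverse transcriptase. Long reads are often used to look for them, since 1 read can span a whole transcript, and brain tissue is known for expressing many long non-coding RNAs.

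The study compared the hypothalamus of sheep with different reproductive performance by Oxford Nanopore sequencing of PCR-amplified full-length cDNA, with reads aligned by minimap2. The HP (high reproduction) group was 3 small-tailed Han sheep and the LP (low reproduction) group 3 Wadi sheep, and breed cannot be told apart from reproductive class. The labels state no treatment, age, batch or pairing, and describe the animals of both groups as healthy and of similar body composition. Columns of the count table were matched to samples by number alone, since their letter differs from that of the sample titles.

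Rounded totals were 2332067 to 2732911 counts in the HP libraries and 1981644 to 2419526 in the LP libraries, so that 3 counts stood for 1.098 to 1.51 CPM (counts scaled by the total of the library). Markers of several tissues differed between the groups. The summed CPM of 7 anterior pituitary markers, among them prolactin and growth hormone, was 47.2 to 139 in HP and 47146 to 299657 in LP. That of 8 cerebellum markers was 2708 to 3020 in HP and 10.3 to 95.9 in LP, and that of 12 hypothalamic peptides, of which GNRH1, KISS1 and NPVF were at 0 in all 6 libraries, was 96.1 to 149 in HP and 4.81 to 9.59 in LP. TRH alone carried the HP sum, with HP counts of 218, 399 and 317 and no LP count, while AVP, OXT and NPY had no count in HP and 0 to 7 counts in each LP library. Without TRH the sum was 2.57, 3.29 and 6.05 CPM in HP and 4.81, 7.85 and 9.59 CPM in LP, and the groups overlapped. Choroid plexus markers reached 4530 CPM in HP replicate 3 and 7370 CPM in LP replicate 3, against 8.68 to 113 CPM in the other 4 libraries. Every HP and LP difference below was measured between libraries that also differ in these markers, and the part of tissue composition in it was not tested. In bulk samples fewer cells of a type and less RNA per cell cannot be told apart.

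Unnamed loci held a larger share of the counts in every HP library than in any LP library. The share was 20.1% in HP replicate 1, 19.3% in HP replicate 2 and 19.4% in HP replicate 3, and 14.7%, 9.94% and 14.1% in LP replicates 1, 2 and 3. The 95% Wilson intervals, which cover counting error only, were narrow, for example from 9.90% to 9.98% in LP replicate 2. The groups did not overlap, and LP replicate 2, which also had the highest sum of pituitary markers, was the lowest. The means were 19.6% ± 0.438 (SD, n = 3) in HP and 12.9% ± 2.59 (SD, n = 3) in LP, a difference of 6.66 percentage points. A two-sided exact permutation test gave p = 0.1, the smallest that 3 against 3 samples allow. Shares of the deposited TPM showed the same order, at 17.0%, 18.4% and 18.2% in HP and 11.2%, 9.07% and 9.12% in LP.

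**Figure D1:**
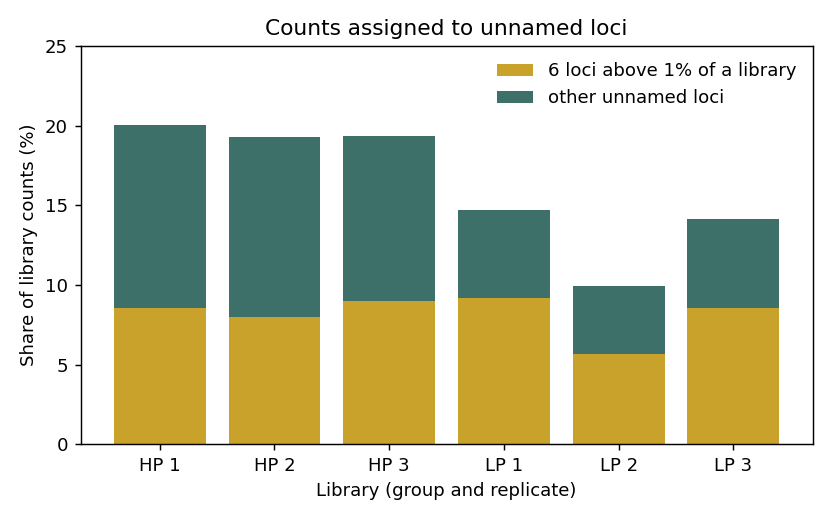
Share of each library's counts in unnamed loci, in percent, for 3 HP and 3 LP libraries, split into the 6 unnamed loci that exceed 1% of some library and all other unnamed loci. The other unnamed loci made up 10.4% to 11.5% of the counts in HP and 4.25% to 5.56% in LP, whereas the ranges of the 6 abundant loci overlapped.

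Most of the difference in share lay in loci that stayed below 1% of every library, and some of these were still abundant. Novel1727, chosen after its values were seen, ranked 21 of all features. It held 0.652%, 0.539% and 0.348% of the counts in HP replicates 1, 2 and 3 and 0.0886%, 0.0400% and 0.0733% in LP replicates 1, 2 and 3. Of the 10 features that exceeded 1% of the counts in any library, 6 were unnamed loci. Together these 6 held 8.55%, 8.01% and 8.99% of the counts in HP replicates 1, 2 and 3 and 9.16%, 5.69% and 8.55% in LP replicates 1, 2 and 3. These ranges overlapped, and the group means of 8.52% ± 0.494 and 7.80% ± 1.85 (SD, n = 3 each) were not separated by an exact permutation test (p = 0.8). The other unnamed loci held 11.05% ± 0.596 in HP and 5.11% ± 0.745 in LP (SD, n = 3 each), a ratio of 2.16, with no overlap between the groups and an exact permutation p of 0.1, again the smallest possible. The 5 most abundant unnamed loci of each library accordingly took 39.2% to 41.9% of its unnamed counts in HP and 51.0% to 55.3% in LP. The 50 most abundant took 63.4% to 63.8% in HP and 72.6% to 75.9% in LP.

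An unnamed locus was typically more abundant than a LOC feature and about as abundant as a named gene, but few were very abundant. The median of the mean CPM over the 6 libraries was 6.18 for unnamed loci, with quartiles at 2.89 and 12.9. It was 0.113 for LOC features and 6.87 for the other named features, whose quartiles lay further apart, at 0.823 and 30.6. A mean of at least 1 CPM was reached by 3981 unnamed loci (86.4%), 1687 LOC features (31.7%) and 11808 named features (73.2%). At 100 CPM and above the order turned, with 90 unnamed loci (1.95%) against 1386 named features (8.59%). These are counts of a feature and are not per length. The deposited TPM had a median of 6.10 for unnamed loci and 1.02 for named features, but the sources used here do not say how length entered it, so these medians are not compared further.

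**Figure D2:**
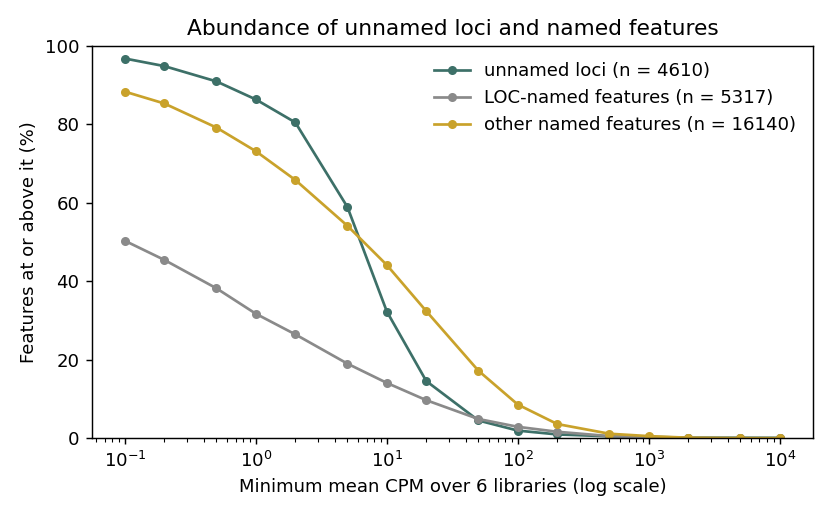
Share of features, in percent, whose mean over the 6 libraries reaches a given CPM (log axis), for unnamed loci, LOC features and other named features. At 1 CPM 86.4% of unnamed loci lie above the line against 73.2% of named features, and at 100 CPM 1.95% against 8.59%.

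The most abundant unnamed loci stood among the most abundant features of the whole table. Novel3863, which has no description, ranked 2 of all features and held 3.77%, 3.05% and 2.77% of the counts in HP replicates 1, 2 and 3 and 2.27%, 1.61% and 2.00% in LP replicates 1, 2 and 3. Every HP share lay above every LP share, but the log2 fold change (HP over LP) of 0.45 with a standard error of 0.38 was not called (adjusted p = 0.348 in edgeR's quasi-likelihood test, Benjamini-Hochberg adjusted over all features tested). On the deposited TPM the order was reversed, with 832, 727 and 769 in HP and 1185, 900 and 851 in LP. Novel1, also without description, ranked 3 with HP counts of 28172, 41974 and 43293 and LP counts of 31431, 19619 and 33659, and its groups overlapped. Novel1726, chosen after its values were seen, at HP counts of 24967, 33157 and 31816 and LP counts of 23927, 17067 and 31533, and novel4610, with a hit to a collagen alpha-1(I)-like chain, at 31049, 25665 and 30613 and 30510, 15105 and 17070, overlapped as well. The adjusted p-values of novel1, novel1726 and novel4610 were 0.890, 0.703 and 0.938 (edgeR). Collagen alpha-1(I) is a chain of the main fibrillar collagen of connective tissue, but the UniProt match of novel4610 was a basic proline-rich protein-like entry of sheep. Further down, novel911 ranked 44, with HP counts of 3544, 5562 and 7491 and LP counts of 2824, 2148 and 2854, and was not called (adjusted p = 0.137, edgeR).

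A pair of abundant loci, novel702 and novel699, hit the same hypothetical bat protein and had their 3 highest levels in the LP libraries after TMM scaling, though not as a share of library totals. Novel702 had 17308, 22002 and 35361 counts in HP replicates 1, 2 and 3 and 39359, 26537 and 26678 in LP replicates 1, 2 and 3, or 8766 ± 2710 against 15006 ± 2394 CPM on normalized (TMM-scaled) totals (SD, n = 3 each). As a share of the library total HP replicate 3 (1.34%) exceeded LP replicate 2 (1.10%), and the groups overlapped. On normalized totals they did not, yet the locus was not called (adjusted p = 0.113, edgeR). Novel699 had HP counts of 10127, 12696 and 23431 and LP counts of 32143, 20412 and 20808, and its log2 fold change of -1.15 with a standard error of 0.39 passed the threshold of 0.05 narrowly (adjusted p = 0.0439, edgeR). That call was lost in 3 of the fits that left out 1 library, with adjusted p-values of up to 0.160, and with library totals alone (0.103) or no filter on low counts (0.0682). Its share of the library total was 0.887% in HP replicate 3 and 0.844% in LP replicate 2, so that its groups overlapped on that scale too.

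More unnamed loci were detected in every HP library than in any LP library. At least 1 rounded count was found for 4181, 4229 and 4259 unnamed loci in HP replicates 1, 2 and 3 and for 3817, 3634 and 3856 in LP replicates 1, 2 and 3. All HP libraries stood above all LP libraries, with means of 4223 ± 39.3 and 3769 ± 119 (SD, n = 3 each) and an exact permutation p of 0.1. The numbers expected after thinning each library to the same depth were 4022 to 4097 in HP and 3345 to 3620 in LP. Other features went the opposite way, with 14299 to 14874 detected in HP libraries and 14926 to 15559 in LP libraries. At a minimum of 10 counts the gap between the groups was wider, with 3127, 3237 and 3210 unnamed loci in HP and 1978, 1761 and 1774 in LP.

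Most unnamed loci were seen in all libraries, which may follow in part from how they were reported. A count in all 6 libraries was found for 3047 of 4610 unnamed loci (66.1%) and for 11756 of the other 21457 features (54.8%). Another 75 unnamed loci had no count after rounding in any library, and 109 had one in 1 library. Loci with a count in all 3 HP libraries and none in LP numbered 172 (3.73%), and those with a count in all 3 LP libraries and none in HP numbered 33 (0.716%). Among the other features the corresponding numbers were 103 (0.480%) and 330 (1.54%). A count of 0 here allows up to 3 counts in a library, so an absence is a limit and not a zero level.

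Few unnamed loci belonged mainly to 1 library. At least 80% of the summed CPM, with at least 10 counts, came from 1 library for 42 unnamed loci (0.911%) and for 263 other features (1.23%). LP replicate 3 was that library for 21 of the 42 and LP replicate 1 for 13. Among the 263 other features the same 2 libraries led, with 149 and 87. LP replicate 3 stood apart in the markers of choroid plexus (7370 CPM), oligodendrocytes (3155 CPM) and fibroblasts (1041 CPM), and LP replicate 1 in those of fibroblasts (1439 CPM). The part of these cells in the loci was not tested. Novel932 had HP counts of 17, 17 and 21 and LP counts of 2, 0 and 343, with 88.6% of its summed CPM in LP replicate 3. With all libraries it was not called (adjusted p = 0.167), and without LP replicate 3, which left 2 counts in LP, it was called higher in HP (adjusted p = 0.00478, both edgeR), with a ratio of 13.6 (counting interval 3.60 to 115). Novel1581 had 208 of its counts in LP replicate 1 against 2 to 15 in the other libraries and was not called either (adjusted p = 0.0645, edgeR). Novel533, with 249 counts in LP replicate 1 and 5 to 16 elsewhere, did not pass the filter on low counts and was not tested.

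The test across features covered 13078 features that passed edgeR's filter on low counts, of which 3053 were unnamed loci, or 66.2% of all 4610. Of these, 1522 (49.9%) were higher in HP, and 186 (6.09%) were higher in LP, at an adjusted p under 0.05. Over all features tested 51.2% were called, 27.1% higher in HP and 24.1% higher in LP. The median log2 fold change of the tested unnamed loci was 1.15, with quartiles at 0.15 and 2.50, beside 0.02 over all features tested and -0.28 over the 10025 other features. Those other features were called higher in HP in 2020 cases (20.1%) and higher in LP in 2965 (29.6%). On this count scale 89.1% of the called unnamed loci were higher in HP, against 40.5% of the called other features. With the deposited TPM and a pseudocount of 1 the split was 73.6%, from 993 loci higher in HP and 356 higher in LP, where 49.3% of all features were called, 18.2% higher in HP and 31.2% higher in LP. With a pseudocount of 0.1 it was 72.5%, where 49.7% of all features were called.

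The counts of calls depended in part on which library was left out. The number of unnamed loci higher in HP ranged from 1189 to 1592 over the 6 fits with 1 library less, and the number higher in LP fell to 122 without HP replicate 2. The counts of other features moved with them, from 1450 to 2317 higher in HP, and to 1945 higher in LP without HP replicate 2. Leaving out HP replicate 3 and LP replicate 3, the libraries with high choroid plexus markers, gave 1462 and 217 and a median of 1.23. That setting was chosen after seeing the data. With no filter on low counts 4535 unnamed loci were tested, with 1796 called in favour of HP and 262 in favour of LP, beside 2323 and 3098 other features.

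**Figure D3:**
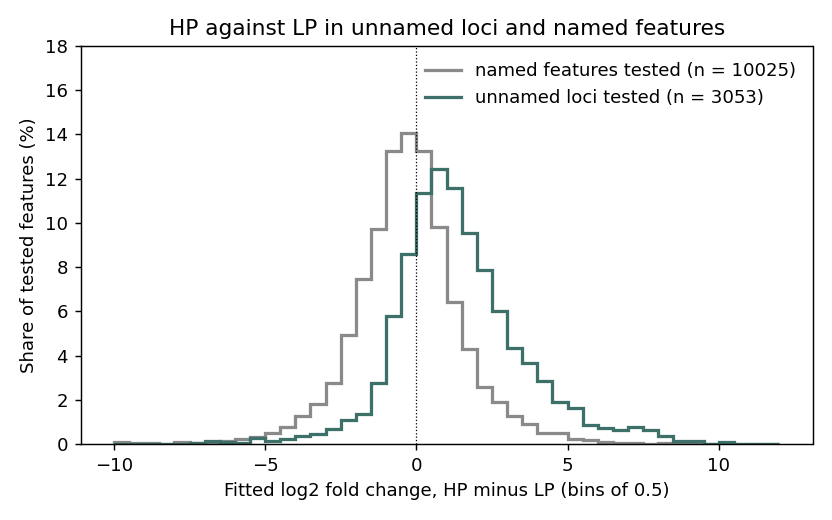
Distribution of the fitted log2 fold change (HP over LP, horizontal axis) of the tested unnamed loci and of the other tested features, as percent of each set per bin. The unnamed loci have a median of 1.15 and reach further to the right, and the other features have a median of -0.28.

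Many of the called loci had a large fitted change. A fitted change of at least 4-fold was found for 983 of the 1522 loci higher in HP and for 100 of the 186 higher in LP, and one of at least 16-fold for 334 and 32. Over all features the 4-fold counts were 1812 of 3542 higher in HP and 1337 of 3151 higher in LP, and the 16-fold counts 518 and 253. On normalized totals all 3 HP values lay above all 3 LP values in 1800 of the 3053 tested unnamed loci, and all LP values above all HP values in 227, where the shares over all features tested were 34.3% and 28.6%. Among loci higher in HP the highest library was HP replicate 1 in 648 cases, HP replicate 2 in 481 and HP replicate 3 in 393. Of the 186 loci higher in LP, 98 were highest in LP replicate 2, 55 in LP replicate 1 and 33 in LP replicate 3. Among other features higher in LP, LP replicate 2 was the highest in 1383 of 2965, so 52.7% of the unnamed loci stood beside 46.6% of the others.

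The shift towards HP was seen at every level of abundance and was smaller among abundant loci. Of 427 tested unnamed loci with a mean of 2 to 5 CPM, 275 were called for HP and 14 for LP, with a median log2 fold change of 2.09. From 5 to 20 CPM the counts were 919 and 115 of 1957, with a median of 1.09, and from 20 to 100 CPM 291 and 46 of 579, with a median of 0.91. At 100 CPM and above they were 37 and 11 of 90, and the median was 0.38. Other features moved the opposite way at low levels, with medians of -0.69, -0.61, -0.16 and 0.15 in the same bins. Loci of the lowest bin passed the filter partly through the group where they are high, so their counts describe the tested loci alone.

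Few unnamed loci carried any deposited description. A match in at least 1 annotation source was given for 431 of 4610 (9.35%), against 99.9% of LOC features. Hits to protein sequences from NCBI's non-redundant set were given for 408 loci, and 299 of these hits were hypothetical or uncharacterized proteins. The hits fell on 236 distinct proteins, and 142 loci had a hit from muntjac deer, 100 from sheep and 76 from cattle, buffalo, bison or yak. A Pfam domain was given for 13 loci and a transcription factor class for 28. The sources could disagree on 1 locus: 48 of 94 KEGG entries were KRAB zinc finger proteins, a family of repressors that silence transposable elements, but only 1 of these 48 loci had a zinc finger protein as its protein hit. A description therefore names the closest hit and not a gene at the locus.

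The same proteins were hit again and again. A single hypothetical sheep protein was the hit of 67 unnamed loci, 39 of which also carried a retrotransposon or retrovirus term. Of its 62 tested loci 29 (46.8%) were called for HP and 4 (6.45%) for LP. These shares were near the 49.9% and 6.09% of all tested unnamed loci, where 27.1% and 24.1% of all features tested were called. The median log2 fold change of the 62 was 0.96 (0.30 with log2 TPM at a pseudocount of 1). Another 21 loci hit a partial buffalo protein named for caudal type homeobox 2, a transcription factor of the intestine, and 14 of them were tested, with 7 called for HP and 2 for LP. Novel2191, 1 of these 21 and chosen after its values were seen, had HP counts of 61, 37 and 41 and LP counts of 0, 1 and 0, a ratio of 101 (counting interval 17.9 to 4023), or at least 11.7-fold without LP replicate 2. A reverse transcriptase-like protein of cattle was the hit of 9 loci, of which 5 were tested and 4 were higher in HP. Loci that share a hit may share sequence, and reads could then be divided between them, so they are not independent measurements.

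**Figure D4:**
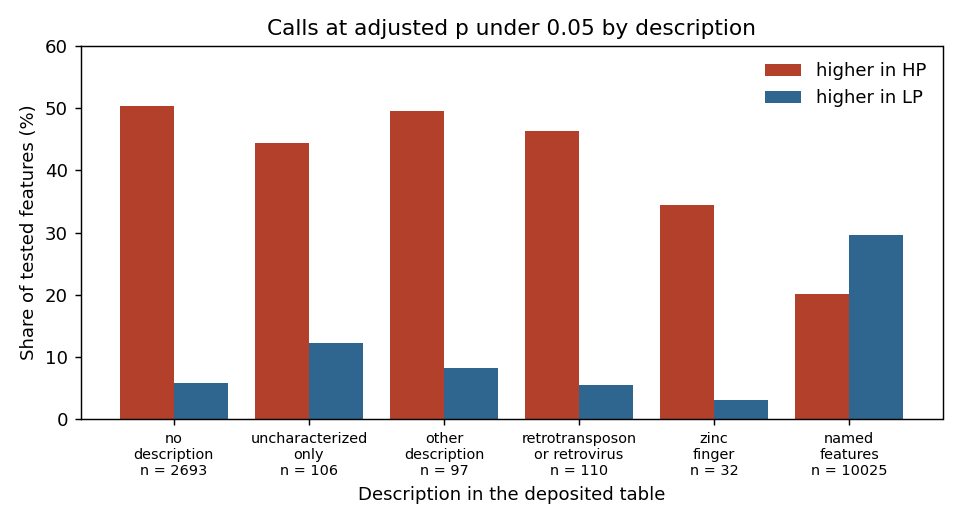
Percent of tested unnamed loci called higher in HP and higher in LP, by the term in their deposited description, with the number tested under each group and the named features at the right. On the count scale the share higher in HP exceeded the share higher in LP in all 5 groups of unnamed loci, while with log2 TPM at a pseudocount of 1 that of the zinc finger loci did not (6 against 7 loci).

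Both loci with and loci without a description were called mostly in favour of HP. Of 4179 loci without any description 2693 were tested, 1358 higher in HP and 156 higher in LP, with a median log2 fold change of 1.19. Of the 431 described loci 360 were tested, 164 higher in HP and 30 higher in LP, with a median of 0.84. Retrotransposon or retrovirus terms were found for 124 loci, of which 110 were tested, 51 higher in HP and 6 higher in LP, with a median of 0.91. These loci held 0.391% of the counts in HP and 0.191% in LP on average. Zinc finger terms were given for 34 loci, and among 32 tested, 11 were called for HP and 1 for LP, with a median of 0.61. The shares called for HP and LP were 46.4% and 5.45% for the retrotransposon or retrovirus loci and 34.4% and 3.13% for the zinc finger loci. They were 49.9% and 6.09% over all tested unnamed loci, and 27.1% and 24.1% over all features tested. With log2 TPM at a pseudocount of 1 the retrotransposon or retrovirus loci kept a median above 0, at 0.20 with 30 called for HP and 17 for LP, whereas the zinc finger loci turned to -0.11 with 6 and 7. No unnamed locus carried a term for a histone, for an immunoglobulin, T cell receptor or MHC protein, or for a pituitary hormone. The difference between these groups of loci was not tested.

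Among the loci with a retrotransposon or retrovirus term, novel449 was the most abundant, though besides that UniProt match it hit an ankyrin repeat domain-containing protein 26-like entry. It had 2539, 2553 and 1515 counts in HP replicates 1, 2 and 3 and 561, 437 and 541 in LP replicates 1, 2 and 3, without overlap, and was 3.13-fold higher in HP (adjusted p = 0.00432, edgeR), a call that log2 TPM at a pseudocount of 0.1 ended (adjusted p = 0.0537, limma). Novel723, with HP counts of 53, 73 and 71 and LP counts of 0, 0 and 1, and novel3888, with 21, 27 and 33 and no LP count, were at the far end. Both were picked by the size of their change and passed the filter on low counts through HP alone. The normalized ratio of novel723 was 143 with an exact 95% counting interval of 25.4 to 5690 (adjusted p = 6.18e-04), and novel3888 exceeded LP at least 6.48-fold, taking a floor of 3 counts per library (adjusted p = 0.00153, both edgeR). Without LP replicate 3, which held the only LP count of novel723, that locus was at least 16.1-fold higher in HP. Novel2149 went the other way, with HP counts of 3, 3 and 2 and LP counts of 48, 22 and 28, 15.9-fold higher in LP (adjusted p = 9.40e-04, edgeR). Novel3730 had HP counts of 172, 127 and 171 and LP counts of 78, 79 and 923, a spread set by LP replicate 3, and was not called (adjusted p = 0.174, edgeR).

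**Figure D5:**
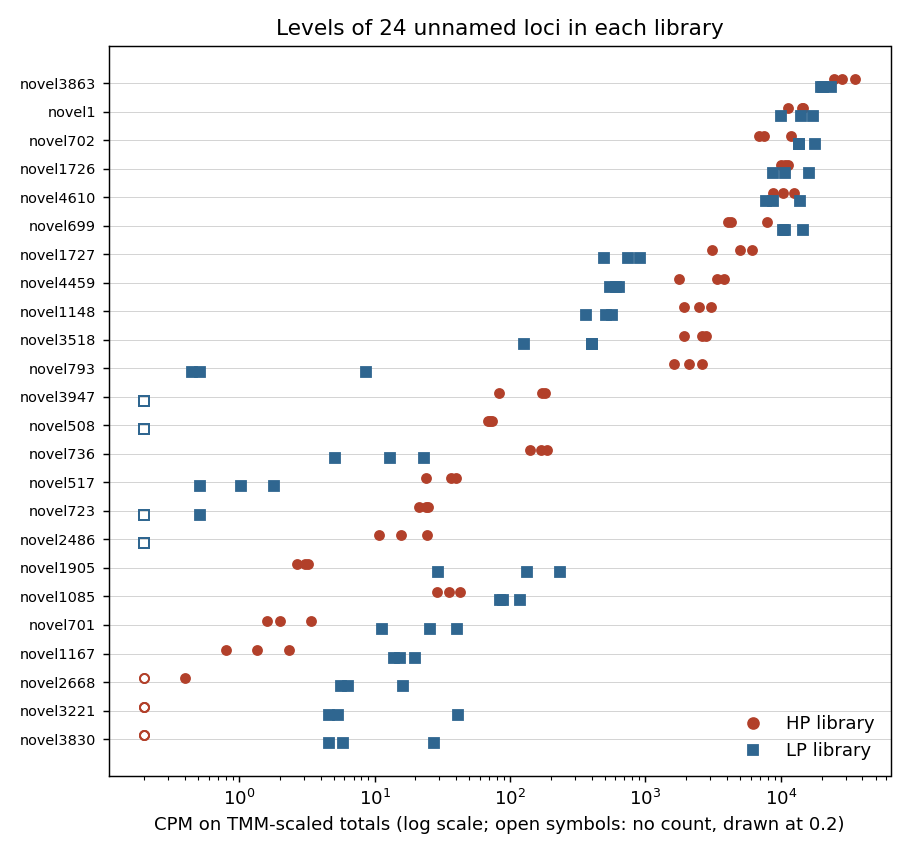
CPM on normalized totals (log axis) of 24 unnamed loci described in the text in each of the 6 libraries, 3 HP and 3 LP, with an open symbol for a library without a count. Most loci higher in HP are separated by more than 4-fold from LP, whereas the abundant loci at the top overlap or lie close together.

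The largest differences in favour of HP were in loci with no count or nearly none in LP. Those named here were picked by the size of this change and passed the filter on low counts through HP alone. Their adjusted p-values and bounds therefore describe the picked loci and are no separate support. Novel3947, without description, had HP counts of 454, 510 and 246 and no LP count, and its HP level was at least 98.9-fold that of LP (adjusted p = 7.18e-04, edgeR). Novel508, also without description, had HP counts of 171, 210 and 220 and no LP count, at least 48.3-fold higher (adjusted p = 3.71e-04, edgeR). Novel508 was even across the HP libraries, at 68.5, 71.4 and 73.9 CPM on normalized totals, whereas novel3947 was lower in HP replicate 3, at 82.6 CPM against 182 and 173. Among described loci, novel2486, 1 of the 67 with the shared sheep hit, had HP counts of 61, 46 and 32 and no LP count and was at least 11.5-fold higher (adjusted p = 0.00201, edgeR). Novel1514, novel1508 and novel1422 had 15 to 70 counts in each HP library and none in LP, with bounds of at least 10.9-fold, 8.29-fold and 6.69-fold. Without HP replicate 1 the bounds of novel1514 and novel1422 were 6.88-fold and 3.78-fold.

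More abundant loci also differed widely. Novel793, novel1727, novel4459 and novel3517 were chosen after their values were seen. Novel793, without description, had HP counts of 6518, 6151 and 4810 and LP counts of 1, 1 and 17. It was 643-fold higher in HP (adjusted p = 0.00108, edgeR), and the size rested on LP replicate 3, without which the normalized ratio was 4334 with a counting interval of 1200 to 35791. Novel1727 and novel4459, also undescribed, were 6.51-fold and 4.91-fold higher in HP, at 9202 to 15206 and 5272 to 9925 counts in the HP libraries and 967 to 2025 and 1077 to 1352 in the LP libraries. Novel3518 and novel3517 had 7011, 7651 and 5714 and 5071, 4933 and 4014 counts in HP, and 895, 785 and 246 and 1113, 1122 and 298 in LP. They were 7.80-fold and 4.08-fold higher in HP (adjusted p = 0.00281 and 0.0120, edgeR), and LP replicate 3 was the lowest library for both. With log2 TPM novel3517 was not called (adjusted p = 0.0697 and 0.0738 at pseudocounts of 1 and 0.1, limma).

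Loci higher in LP were fewer than those higher in HP. Those named here were picked by the size of their change, and those without an HP count passed the filter on low counts through LP alone. Novel1905 had HP counts of 8, 9 and 8 and LP counts of 298, 455 and 57 and was 43.9-fold higher in LP (adjusted p = 0.00182, edgeR), and 28.7-fold without LP replicate 2. The undescribed novel3221 had no count in HP and 12, 81 and 9 in LP, at least 15.9-fold higher, but at least 4.66-fold without LP replicate 2. Novel3830 had none in HP and 13, 54 and 9 in LP, with bounds of 11.8-fold and, without LP replicate 2, 4.87-fold. The highest sum of pituitary markers was in LP replicate 2 too, and the link of these loci to that sum was not tested. Novel4408 was more even, at HP counts of 1, 1 and 2 and LP counts of 16, 23 and 18, 18.1-fold higher in LP (adjusted p = 8.84e-04, edgeR). Novel4338, whose hit resembles KDM6B, a histone demethylase, had HP counts of 1, 3 and 6 and LP counts of 60, 63 and 11, 17.9-fold higher in LP (adjusted p = 0.00473, edgeR) and 27.97-fold without HP replicate 3. Novel2668 had HP counts of 1, 0 and 0 and LP counts of 14, 32 and 11, a ratio of 78.3 (counting interval 13.5 to 3148), and was at least 9.31-fold higher in LP without HP replicate 1. Novel701, with a basic proline-rich protein as hit, had HP counts of 4, 10 and 6 and LP counts of 90, 50 and 22.

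Loci whose hits are ribosomal proteins, the parts of the translating ribosome, moved in both directions. Of 7 such loci 5 were tested, with 2 called in each direction, or 1 for HP and 2 for LP with log2 TPM. Novel1148, with a hit to RPS23 of the small subunit, was the most abundant, at HP counts of 6242, 8924 and 5688 and LP counts of 1136, 1106 and 710. It was 5.11-fold higher in HP (adjusted p = 0.00141, edgeR), while the gene RPS23 itself had HP counts of 2667, 3867 and 2890 and LP counts of 3872, 4401 and 2698. On normalized totals every LP value of the gene lay above every HP value, at 1384 to 2249 CPM against 971 to 1315 CPM, and it was not called (adjusted p = 0.0703, edgeR). Novel1797, with a hit to RPS7, had HP counts of 34, 40 and 66 and LP counts of 25, 17 and 17 and was not called (adjusted p = 0.0840, edgeR). Novel1797 and the next locus were chosen after their values were seen. Novel2970, with a hit to RPL17, had HP counts of 42, 48 and 61 and LP counts of 11, 10 and 18 and was 2.74-fold higher in HP (adjusted p = 0.0114, edgeR), but was not called with log2 TPM (adjusted p = 0.0867 at a pseudocount of 1, limma).

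Both loci higher in LP had hits to small subunit proteins. Novel1085, with a hit to RPS3A, had HP counts of 72, 125 and 105 and LP counts of 262, 173 and 164, 2.75-fold higher in LP (adjusted p = 0.00320, edgeR). The gene RPS3A was also higher in LP, at HP counts of 267, 375 and 2319 and LP counts of 3673, 9107 and 3010. Novel1167, with a hit to RPS6 and chosen after its values were seen, had HP counts of 2, 4 and 7 and LP counts of 34, 39 and 27, 10.5-fold higher in LP (adjusted p = 0.00131, edgeR), and the gene RPS6 had 861, 1027 and 1603 against 4926, 5718 and 3784. How reads were divided between a gene and a near-identical copy is not given in the sources used here, so the levels of these loci are uncertain.

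The loci named here with hits to proteins of neurons and synapses were either called higher in HP or not called. The 3 loci of the synapse and channel group were called higher in HP on the count scale. With log2 TPM at a pseudocount of 1 only 1 of them was called. All 3 had a UniProt match to synaptotagmin-12, a vesicle protein, but their other protein hit was an enzyme, prolyl 4-hydroxylase subunit alpha-1. Novel4461 had HP counts of 131, 136 and 136 and LP counts of 32, 31 and 37, a log2 fold change of 1.53 (adjusted p = 0.00217, edgeR). Novel4574 and novel3138 had 112 to 185 counts in HP libraries and 43 to 83 in LP libraries, with log2 fold changes of 0.88 and 0.82 that lost their call in 1 and 2 of the fits with 1 library left out. The gene SYT12 had HP counts of 119, 147 and 128 and LP counts of 5, 2 and 14.

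Further loci with neuronal hits and the loci set beside them were chosen after their values were seen. Novel736, with a hit resembling the medium neurofilament chain of the axonal skeleton, had HP counts of 352, 501 and 558 and LP counts of 29, 45 and 10, 11.96-fold higher in HP (adjusted p = 0.00160, edgeR). Novel517, with a hit to the GABA-B receptor subunit GABBR2, had HP counts of 60, 107 and 118 and LP counts of 4, 1 and 2 and was 27.8-fold higher (adjusted p = 6.40e-04, edgeR). The gene GABBR2 was higher in HP as well, at 570, 655 and 592 counts against 53, 53 and 44. Novel3111, with a hit to the neuronal tubulin beta-3, had HP counts of 274, 276 and 394 and LP counts of 64, 59 and 30, 4.46-fold higher (adjusted p = 0.00183, edgeR). Novel3468 had a UniProt match to the teneurin TENM4, but its KEGG entry was poliovirus receptor-related protein 2 and its other protein hit was hypothetical. It had HP counts of 46, 37 and 32 and LP counts of 0, 0 and 3, a ratio of 27.9 (counting interval 9.31 to 137), or at least 9.64-fold without LP replicate 3. The gene TENM4 was not called (adjusted p = 0.0551, edgeR). Its level on normalized totals was 27.9 ± 4.71 CPM in HP and 47.1 ± 13.1 CPM in LP (SD, n = 3 each), with every LP value above every HP value, the opposite direction to the locus. Outside neurons, novel4582, with a hit to the translation elongation factor EEF1G, had HP counts of 181, 286 and 211 and LP counts of 38, 21 and 16, 6.55-fold higher in HP (adjusted p = 0.00115, edgeR). Novel236, with a hit to a MYC-binding protein, went the other way, at 76, 65 and 75 in HP libraries against 286, 258 and 111 in LP libraries, 4.13-fold higher in LP (adjusted p = 0.00353, edgeR). Of the other loci with neuronal hits, novel3575 and novel3032 were called higher in HP. Novel3575, with a match to NOVA1, had HP counts of 145, 185 and 121 and LP counts of 26, 33 and 28 (adjusted p = 0.00197, edgeR). Novel3032, with a match to the neuronal splicing factor SRRM4, had HP counts of 100, 50 and 63 and LP counts of 10, 5 and 6 (adjusted p = 0.00253, edgeR). The loci that follow were not called. Novel3886, with a match to the synaptic complexin CPLX2, had HP counts of 1, 1 and 0 and LP counts of 13, 44 and 2, and did not pass the filter on low counts. The gene CPLX2 was higher in HP, at 687, 732 and 599 counts against 32, 30 and 18 in LP (adjusted p = 3.39e-04, edgeR). Novel2222, with a match to the transcription factor NPAS3, had a log2 fold change of -0.75 (adjusted p = 0.180, edgeR), and the gene NPAS3 was not called either (adjusted p = 0.502, edgeR). Novel2852, also with a match to SRRM4, had a log2 fold change of 0.66 (adjusted p = 0.161, edgeR). The gene SRRM4 was higher in HP, at 438, 520 and 560 counts against 46, 31 and 15 in LP (adjusted p = 7.11e-04, edgeR). The relation of any of these loci to the cerebellum or pituitary markers was not tested.

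Mitochondrial, taste receptor and zinc finger terms gave a few more loci. Novel1509, with a hit to a mitochondrial elongation factor G, had HP counts of 37, 36 and 45 and LP counts of 0, 1 and 0, a ratio of 85.9 (counting interval 15.1 to 3419, adjusted p = 9.11e-04 by edgeR), and was at least 9.72-fold higher without LP replicate 2. Novel4332, with a hit to the mitochondrial calcium uptake protein 3 and chosen after its values were seen, had HP counts of 21, 13 and 15 and LP counts of 1, 0 and 1, a ratio of 17.8 (counting interval 4.68 to 151, adjusted p = 0.00328 by edgeR and 0.0540 by limma with log2 TPM at a pseudocount of 0.1). Novel3600, with a hit to the ATP synthase subunit ATP5MJ, had HP counts of 386, 576 and 647 and LP counts of 313, 321 and 332 and was not called (adjusted p = 0.372, edgeR). Novel3913, listed under taste receptors by KEGG and under kinases by its protein hits, had HP counts of 22, 28 and 34 and LP counts of 160, 7 and 5. It was not called with all libraries (adjusted p = 0.317) and was higher in HP without LP replicate 1, at a log2 fold change of 1.66 (adjusted p = 0.0193, both by edgeR). Novel3554, also under the taste receptor term, had HP counts of 20, 8 and 16 and LP counts of 12, 14 and 34 and was not called. Novel101 and novel447, the most abundant loci with a zinc finger term, had it from KEGG, while their protein hit was a hypothetical protein. They had 529, 617 and 590 and 262, 266 and 235 counts in HP and 335, 281 and 373 and 118, 76 and 160 in LP, and neither was called (adjusted p = 0.201 and 0.122, edgeR).

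Unnamed loci could be set beside the gene of their hit in a limited number of cases, a comparison added after seeing the data. A UniProt match gave a gene symbol for 56 loci, and for 22 of these both the locus and the gene passed the filter, with 19 genes in all. Both were higher in HP in 6 pairs and both higher in LP in 1. The 6 pairs include novel3138, novel4461 and novel4574, which share the gene SYT12, so they are not 6 separate genes. In 3 pairs, with HNRNPK, ASNSD1 and EML1, the locus was higher in HP and the gene higher in LP. For EML1, a microtubule-associated protein, the gene had 2 counts in each HP library and 20, 28 and 33 in LP, while novel2858 had HP counts of 40, 30 and 57 and LP counts of 5, 10 and 5. The locus alone was called in 6 pairs, the gene alone in 3 and neither in 3. The median log2 fold change over the pairs, in which a gene can repeat, was 1.30 for the loci and -0.11 for the genes.

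Values of unnamed loci varied a little more between replicates than those of other features. The median within-group standard deviation of log2(CPM + 1) was 0.301 in HP and 0.491 in LP for unnamed loci, and 0.243 and 0.405 for other features. The sets were not matched for abundance. At 5 to 20 CPM lay 1957 of 3053 tested unnamed loci against 3783 of 10025 others, and the part of abundance in the spread was not tested. The chi-square per degree of freedom between libraries of the same group, over unnamed loci, was 4.60 to 15.5, so no 2 libraries were alike within sampling noise. Before rounding, fractional counts made up 38.7% to 46.9% of the detected unnamed values of a library, against 32.3% to 40.6% for the other features. After a constant for each library was taken out, the ratio of TPM to counts of a locus was compared across the 6 libraries. It stayed within 10% for all 1718 unnamed loci with at least 5 counts in each, and for 49.2% of the named features. Without that step the ratio differed between libraries. Novel4610 had 31049 counts and 880 TPM in HP replicate 1, and 30510 counts and 2085 TPM in LP replicate 1.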

How the data were processed

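Full-length cDNA from 6 sheep samples was read by Oxford Nanopore sequencing, per the labels' protocols. Reads were aligned with minimap2 2.17-r941, per the submitters' processing notes. Sources used here do not give the quantification tool, genome build, annotation or the rule that set these loci apart. The authors' estimated counts are unscaled, and their deposited TPM values were scaled to the same total in each sample. Counts were rounded to whole numbers and fitted over all features with edgeR 4.0.16 in R 4.3.3 (filterByExpr, TMM, quasi-likelihood test, 2-sided, Benjamini-Hochberg adjustment, threshold 0.05). Fold changes in the text are from that fit or from normalized CPM. A fold against a group at 0 is a bound against 3 counts per library. A locus at or near 0 in 1 group passed the filter on low counts through the other group. Ratios with 1 to 3 counts in the lower group have an exact counting interval. Single values per library were compared by exact permutation. The p-values of edgeR and limma set the difference between the groups against the spread between the 3 sheep of a group. Both tools estimate that spread with help from the other features. Since the reads come from PCR copies, intervals and floors cover counting error only.

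Members, lists, keywords and tests were chosen with earlier results of these data known. Loci were named by rank: the largest changes without overlap in each direction with and without a description, the highest means, the highest means not called, the 2 most abundant of each keyword group and loci mostly in 1 library. Alternatives were DESeq2 1.42.0 and its size factors, library totals alone, limma 3.58.1 with voom or log2(TPM + 1 or 0.1), other filters, features above 1% left out, and each library left out. On simulated counts for 13078 features, 200 of them changed by a log2 size of 2, edgeR recovered 86.5% of the changed ones.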

Additional observations from a re-analysis of the deposited data

How the results depend on the processing

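The shift of unnamed loci towards HP kept its direction in all settings tried, and its size depended most on the scale. The median log2 fold change was 1.39 with library totals alone, 1.25 with limma-voom, and 0.43 and 0.53 with log2 TPM at pseudocounts of 1 and 0.1. With TPM the loci higher in HP numbered 993 and 909 and those higher in LP 356 and 344, beside a median over all features of -0.31 and -0.40, and the unnamed loci stood 0.74 and 0.93 above that median. The median over all features was 0.27 with library totals alone. The cause was not tested. With 1 library left out the loci higher in LP ranged from 122 to 241, those higher in HP from 1189 to 1592 and the median from 1.11 to 1.21. DESeq2 gave 1449 higher in HP and 200 higher in LP, beside 1943 and 3099 other features. With limma-voom 1538 and 174 were called, beside 2190 and 2845 other features. The share difference ranged from 5.17 to 8.07 percentage points and the difference in detected loci from 386.5 to 1353.7. Without HP replicate 3 and LP replicate 3 (chosen after seeing the data) these were 7.36, for which the exact permutation p was 0.333, and 479.5.

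Of 585 values over 37 loci and the settings, 533 kept direction and side of the threshold, 14 lost a call, 9 gained one and 29 reversed, mostly in loci near 0. As log2 fold changes, with TPM at pseudocounts 1 and 0.1 the reversed values were -0.69 and -0.69 for novel4610, -0.20 and -0.20 for novel911, -0.32 and -0.32 for novel3863, -0.54 and -0.54 for novel3600, -0.39 and -0.41 for novel101 and -0.064 and -0.065 for novel447, with 0.020 for novel932 at 0.1. Novel4610 ranged from -0.17 (without LP replicate 2) to 0.33 with 1 library left out. Novel1 was at 0.15 with library totals alone, 0.13 with no filter, between -0.29 and 0.077 with 1 library left out (0.04 without HP replicate 1), and at 0.0073 without HP replicate 3 and LP replicate 3. Novel3913 was at 0.023 with limma-voom and ranged from -2.13 (without HP replicate 3 and LP replicate 3) to 1.66 (without LP replicate 1). Novel3730 ranged from -2.21 to 0.52 (without LP replicate 3), with 0.50 without HP replicate 3 and LP replicate 3. Novel932 was at 0.90 with limma-voom and ranged from -3.78 to 3.58 (without LP replicate 3), with 3.51 without HP replicate 3 and LP replicate 3.

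No paired analysis was possible because the labels give no replicate numbers or pairing. Depth limits loci of a few counts, where 3 counts are 1.098 to 1.51 CPM.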
